A study of Homo sapiens with 4 samples.

Results

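Open chromatin around 10 cell cycle genes was examined in SKBR3 cells, an established HER2-positive breast cancer line with an amplified ERBB2 gene. The genes were the D-type cyclins CCND1, CCND2 and CCND3, the E-type cyclins CCNE1 and CCNE2, the CIP/KIP inhibitors CDKN1A, CDKN1B and CDKN1C, and the INK4 inhibitors CDKN2A and CDKN2B. ATAC-seq, an assay whose Tn5 enzyme cuts and tags accessible DNA, had been run on 2 untreated libraries and 2 libraries from cells given TWEAK, a cytokine of the TNF superfamily that binds the receptor Fn14, at 10 ng/ml for 48 h with fresh TWEAK after 24 h. The labels give the 8 h starvation in optimem in the same words for every library, and all libraries came from a single line. Peaks of the 4 deposited lists that overlapped by at least 1 bp were joined into 307691 sites, and the 367 sites within 100 kb of any annotated transcript start of the 10 genes were taken. For 126 of these 367 sites (34.3%) the nearest protein-coding start belonged to 1 of the 10 genes, and the others lay nearer to a neighbouring gene.

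D-type cyclins accumulate on mitogenic signals and activate CDK4 and CDK6, which phosphorylate the retinoblastoma protein, and E-type cyclins then activate CDK2 at entry into S phase. CIP/KIP proteins bind cyclin and CDK complexes, above all those of CDK2, whereas INK4 proteins bind CDK4 and CDK6 and keep D-type cyclins from them. An ATAC-seq peak at such a gene marks a promoter or another stretch of open DNA and does not measure its transcript or protein.

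A peak list records where a peak was called and a significance value, the −log10 of a p-value, for each peak. These values corresponded to whole-number read pileups set against a single background level in each list, so that each peak could be given as a pileup, as a fold over the list's background and as a rank percentile within its list (100 for the highest value). No pileup is recorded where a list has no peak, and a missing peak does not show that the pileup there was low, since a list can hold a peak just beside the site. Of the 428 absences at the 193 sites that were not in all lists, 144 (33.6%) had a peak of the same list within 500 bp, as had 27 of 46 at the 30 such sites above the 50th percentile in some list. One example is chr6:36593458-36593958 near CDKN1A, with a pileup of 68 in untreated 2 and peaks of the other 3 lists 19 to 23 bp away. The order untreated 1, untreated 2, TWEAK 1 and TWEAK 2 is kept wherever 4 values are given. A site was called gained when both TWEAK lists and neither untreated list had it, lost in the opposite case, and shared when all 4 lists had it, so these calls concern listed peaks and not measured pileups.

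The sequences below come from gained, lost and shared sites named later. All but the CCND3 site were picked because they hold an NF-kB match. They are the central 201 bp of the best-ranked peak of each site on the plus strand of hg38, with the searched motif in capitals. The first 3 belong to shared sites with higher ranks in both TWEAK libraries, the next 3 to gained sites and the last to a lost site. Capitals mark an NF-kB consensus in all but the gained CCND3 site, where they mark the TFAP2 consensus GCCNNNGGC, and overlapping matches were capitalised as a single run.
CDKN1A, chr6:36627853-36628053: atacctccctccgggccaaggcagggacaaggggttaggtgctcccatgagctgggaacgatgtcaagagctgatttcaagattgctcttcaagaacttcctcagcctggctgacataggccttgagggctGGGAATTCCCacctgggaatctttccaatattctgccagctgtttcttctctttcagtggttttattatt
CDKN1A, chr6:36755771-36755971: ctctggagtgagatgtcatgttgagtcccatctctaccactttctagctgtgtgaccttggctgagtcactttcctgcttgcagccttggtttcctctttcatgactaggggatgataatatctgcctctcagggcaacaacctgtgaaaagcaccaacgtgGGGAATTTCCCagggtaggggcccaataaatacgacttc
CDKN1B, chr12:12587024-12587224: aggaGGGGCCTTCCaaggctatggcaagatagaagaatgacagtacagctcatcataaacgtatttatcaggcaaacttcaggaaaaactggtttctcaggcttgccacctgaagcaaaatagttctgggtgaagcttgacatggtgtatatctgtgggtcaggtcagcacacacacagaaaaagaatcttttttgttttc
CDKN1B, chr12:12805809-12806009: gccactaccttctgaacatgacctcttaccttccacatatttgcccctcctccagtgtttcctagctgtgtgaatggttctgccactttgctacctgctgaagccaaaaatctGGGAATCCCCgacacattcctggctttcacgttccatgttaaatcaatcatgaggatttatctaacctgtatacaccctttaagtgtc
CDKN2B, chr9:22052642-22052842: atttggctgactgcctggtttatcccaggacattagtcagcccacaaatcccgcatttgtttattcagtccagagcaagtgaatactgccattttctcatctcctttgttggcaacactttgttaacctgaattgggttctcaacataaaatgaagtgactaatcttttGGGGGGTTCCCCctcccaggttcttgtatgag
CCND3, chr6:42083285-42083485: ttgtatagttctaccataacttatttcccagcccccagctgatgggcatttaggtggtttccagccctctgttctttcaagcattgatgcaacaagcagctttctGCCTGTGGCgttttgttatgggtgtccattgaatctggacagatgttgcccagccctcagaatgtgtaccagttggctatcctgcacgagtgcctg
CDKN1A, chr6:36753836-36754036: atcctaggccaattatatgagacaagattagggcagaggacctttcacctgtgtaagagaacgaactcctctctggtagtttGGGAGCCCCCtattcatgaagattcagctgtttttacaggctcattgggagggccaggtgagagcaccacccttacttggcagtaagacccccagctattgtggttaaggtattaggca
The promoter of CDKN2B, the most accessible of the 10, is shown from the RefSeq promoter table (GRCh38.p14) as the 250 bases before its start, read on the minus strand at chr9:22009306-22009555, with matches to the GC box GGGCGG on either strand in capitals.
CDKN2B promoter: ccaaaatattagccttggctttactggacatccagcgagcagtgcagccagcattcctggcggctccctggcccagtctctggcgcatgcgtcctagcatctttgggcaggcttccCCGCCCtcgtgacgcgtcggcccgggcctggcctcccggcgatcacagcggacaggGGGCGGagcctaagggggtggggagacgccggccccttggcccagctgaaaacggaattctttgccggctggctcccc
These letters are matches to a consensus and not measured binding. Since most sites shown were picked for a match, they do not show how common it is. NF-kB matches were in 2 of the 13 gained sites (15.4%, beside 20.1% of all gained sites). Of the 10 lost sites, 2 held one (20%, beside 4.28% of all lost sites). The shared sites with the widest rise and the widest fall in rank held neither an NF-kB nor an AP-1 match.

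The lists held 208407, 228734, 218423 and 195388 peaks, with a lowest recorded pileup of 10, 7, 8 and 7 and a background of 3.59, 2.24, 2.63 and 1.85, and the read depth of the libraries is unknown. Of 10 luminal epithelial and HER2 genes, 9 had a promoter peak in all libraries, and CDH1, the E-cadherin gene, had none in any. Promoter peaks in all libraries were also found for CD14, a monocyte gene, CDH5 of 3 endothelial genes, and COL1A1 and PDGFRB of 3 fibroblast genes, while CD3E and TEK had none. The part of other cells in these peaks was not tested.

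Every one of the 10 genes had a peak within 1 kb of an annotated start in all 4 libraries, where the share over 19970 protein-coding genes was 76.0%. At the canonical start alone the count was 9 of 10, beside 70.0% of protein-coding genes, and CCND2 was the exception. Of the 9 canonical promoters present in all libraries, none had both TWEAK ranks above both untreated ranks, and on fold over background CDKN2A alone had. The promoters of CCND3, CCNE2 and CDKN1B ranked lower in both TWEAK libraries, with differences of −3.62, −3.10 and −3.43 percentile points between the group means.

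**Figure D1:**
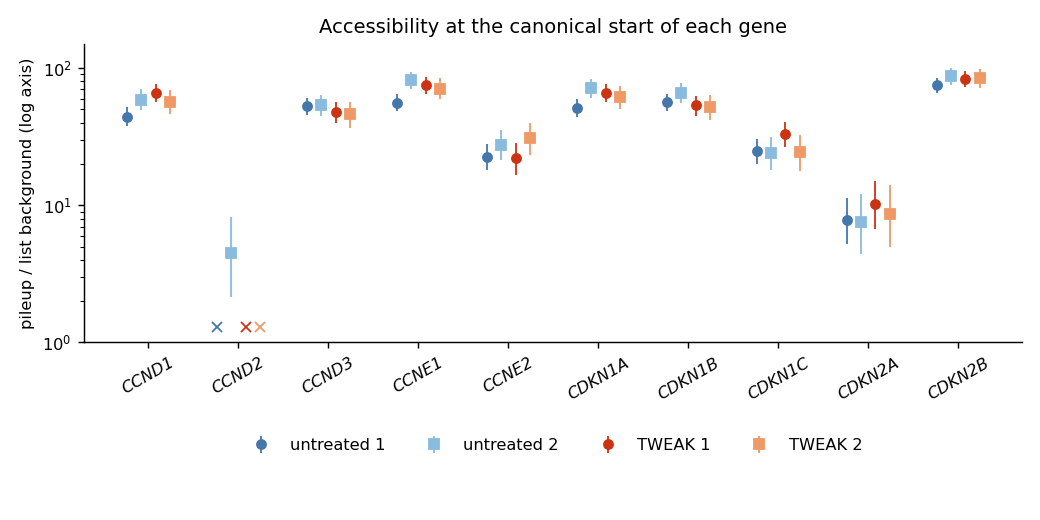
Pileup over the list background (log axis) of the site at the canonical start of each gene in the 4 libraries, with 95% exact Poisson intervals that cover counting error only; a cross at the foot marks a library without a peak. CDKN2B has the highest values (74.7 to 87.7 over background), CDKN2A the lowest of the genes with a peak in every library (7.60 to 10.3), and CCND2 has a peak in untreated 2 only.

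Among the D-type cyclins, CCND1, the cyclin D1 gene that is often amplified in breast cancer, had its promoter site at chr11:69640903-69641408 on percentiles 91.1, 93.4, 94.6 and 91.1. Its pileup stood 44.3, 59.0, 66.1 and 56.9 times over background (51.7 ± 10.4 untreated and 61.5 ± 6.53 TWEAK, SD, n = 2 each), and the groups overlapped. CCND2, the cyclin D2 gene, had a peak at its canonical start in untreated 2 only, with a pileup of 10 (4.47 over background, percentile 22.8). Its best promoter site lay at an upstream start at chr12:4271708-4272755, on percentiles 23.7, 3.28, 21.4 and 27.3, which overlapped between the groups, while its folds of 4.18, 3.13, 4.56 and 6.50 over background put both TWEAK libraries above with overlapping counting intervals. CCND3, the cyclin D3 gene, had its canonical promoter at chr6:41941599-41942123 on percentiles 93.3, 92.3, 90.6 and 87.7, and both TWEAK libraries ranked below both untreated ones. In fold over background the same order held, with 52.7, 53.7, 47.9 and 46.0 (53.2 ± 0.701 against 46.9 ± 1.29, n = 2 each), and the counting intervals of all 4 values overlapped.

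The E-type cyclin promoters were open in every library. CCNE1, which encodes cyclin E1, had a promoter site at chr19:29811630-29812164 on percentiles 94.0, 96.5, 95.9 and 94.0, with 56.0, 81.4, 74.8 and 70.9 over background. CCNE2, which encodes cyclin E2, ranked lower, on percentiles 80.2, 82.5, 76.6 and 79.9, with 22.6, 27.7, 22.03 and 30.9 over background. The 2 scales disagree for CCNE2: both TWEAK ranks were below both untreated ranks, while the TWEAK folds included the lowest and the highest of the 4. Its promoter site is shared with NDUFAF6, whose start was the nearest to the site centre.

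Of the CIP/KIP promoters, that of CDKN1A, the p21 gene, lay at chr6:36678416-36678930 on percentiles 93.0, 95.3, 94.6 and 92.1 (51.3, 71.6, 66.1 and 61.2 over background), without separation of the groups. CDKN1B, which encodes p27, had a promoter site at chr12:12716247-12717490 on percentiles 94.1, 94.6, 92.1 and 89.7. Both TWEAK libraries were lower on either scale, with 56.6, 66.2, 53.6 and 52.0 over background (61.4 ± 6.80 against 52.8 ± 1.11, n = 2 each). CDKN1C, the imprinted p57 gene, was less accessible at its start at chr11:2885657-2886684, on percentiles 82.0, 80.0, 84.7 and 74.4, and the TWEAK libraries held both the highest and the lowest value.

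The INK4 genes lie side by side on chromosome 9. CDKN2B, which encodes p15, had the highest promoter of the 10, at chr9:22009172-22009752, on percentiles 96.8, 97.0, 96.9 and 96.0 and 74.7, 87.7, 83.9 and 84.5 over background (81.2 ± 9.17 against 84.2 ± 0.377, n = 2 each). CDKN2A makes p16 from its canonical start and p14ARF from an upstream start. The p16 start at chr9:21974623-21975427 was weakly open, on percentiles 51.7, 48.9, 55.8 and 40.5 and 7.81, 7.60, 10.3 and 8.66 over background. The upstream start at chr9:21994138-21995578 ranked higher in each library, on percentiles 77.8, 81.3, 80.6 and 76.0, and neither start separated the groups on ranks. On fold over background both TWEAK libraries were above at either start (20.1, 25.9, 26.6 and 25.99 upstream), with overlapping counting intervals.

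The number of sites with a peak near the 10 genes was 254, 279, 261 and 246 of 367 (69.2%, 76.0%, 71.1% and 67.0%), where the whole lists held 65.9%, 72.3%, 69.1% and 61.9% of the 307691 sites. The mean was 266.5 ± 17.7 in untreated and 253.5 ± 10.6 in TWEAK libraries (SD, n = 2 each), a TWEAK minus untreated difference of −13 sites (two-sided exact permutation test, p = 0.667, where 2 libraries against 2 cannot give less than 0.333). This difference turned to 7 when peaks had to be at least 5 times over background, and was −0.5 for sites nearest to the 10 genes. All 4 libraries shared 174 of the 367 sites (47.4%), beside 42.8% of all sites. Gained sites numbered 13 (3.54%), beside 3.60% of all sites, and lost sites 10 (2.72%), beside 3.79%. A peak in 1 library only was found at 88 of the 367 sites, beside 89706 of all 307691 sites (29.2%). Without sites that had a peak of the other treatment within 500 bp, 7 gained (1.91%, beside 2.61%) and 6 lost (1.63%, beside 2.50%) were counted. The order against the share of all sites depended on the library left out: lost sites made up 7.18% beside 6.56% without TWEAK 2 and 11.2% beside 11.5% without untreated 2, and gained sites 8.26% beside 7.63% without untreated 2 and 6.48% beside 9.09% without TWEAK 1.

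**Figure D2:**
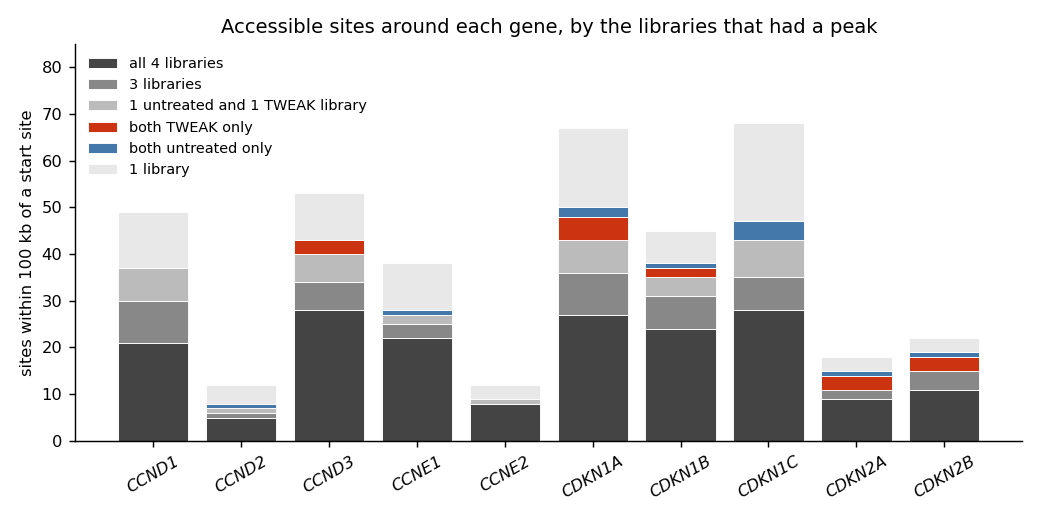
Number of sites within 100 kb of a start of each gene, stacked by the libraries that had a peak; CDKN2A and CDKN2B have 17 sites in common, which are drawn for each. CDKN1C (68) and CDKN1A (67) have the most sites and CCND2 and CCNE2 (12 each) the fewest. Gained sites appear at CDKN1A (5), CCND3 (3), CDKN1B (2) and the INK4 genes (3). Of the 10 lost sites, 4 are at CDKN1C.

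The D-type cyclins had 114 sites with 3 gained (2.63%) and 1 lost (0.877%), and the E-type cyclins 50 sites with 0 gained and 1 lost (2%). The CIP/KIP genes had 180 sites with 7 gained and 7 lost (3.89% each), and the INK4 genes 23 sites with 3 gained (13.04%) and 1 lost (4.35%). Beside the 3.60% and 3.79% of all sites, these shares rest on at most 7 sites each, and differences between the families were not tested. Sites were dense at CDKN1C and CDKN1A, where peaks covered 12.1% and 11.2% of the window on average over the libraries, and sparse at CCND2, where they covered 1.86%. CCND1 with 49 sites and CCNE2 with 12 had neither a gained nor a lost site.

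Gained sites were mostly weak. In TWEAK 1 their percentiles ran from 16.4 to 66.9 with a median of 38.1, and in TWEAK 2 from 2.52 to 58.6 with a median of 40.5. A single gained site was above the 50th percentile in both libraries, beside 0.591% of all sites, and none of the lost ones, beside 0.210%. That site, at chr6:42083135-42083652 in an intron of TAF8, lies 141.6 kb upstream of the canonical CCND3 start and 33.0 kb from the nearest annotated CCND3 start. Its pileups were 39 and 26 in the TWEAK libraries (14.8 and 14.1 over background, 95% exact Poisson intervals 10.5 to 20.2 and 9.20 to 20.6), and a peak of untreated 1 lay 351 bp away.

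At CDKN1A 5 sites were gained. The 2 that were nearer to CDKN1A than to any other protein-coding gene lay 19.2 kb and 11.5 kb upstream of its canonical start. The former, at chr6:36659260-36659777, had TWEAK pileups of 25 and 16 (9.49 and 8.66 over background), and the latter, at chr6:36666924-36667462, of 18 and 17 (6.84 and 9.20). The nearest untreated peaks were 960 bp and 3509 bp away. A gained site at chr6:36758468-36759012, in an intron of CPNE5 80.0 kb downstream, had the highest folds of the 5 (9.87 and 9.75), with an untreated peak 74 bp away. The gained sites at chr6:36578951-36579477 and chr6:36607891-36608429, both intergenic, stood 6.46 and 5.41, and 4.94 and 6.50 over background. They also had untreated peaks close by, at 113 bp and 486 bp.

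At the INK4 genes all 3 gained sites fell inside the antisense transcript CDKN2B-AS1. The site at chr9:22037192-22037712 lay in an exon of it, 28.1 kb upstream of CDKN2B, with 6.84 and 9.75 over background and an untreated peak 286 bp away. The site at chr9:22052490-22052992, 43.4 kb upstream in an intron and shown above with its NF-kB matches, had 4.56 and 7.58 over background, and untreated peaks came no closer than 10186 bp. The remaining site, at chr9:21996780-21997361, was close to the p14ARF start of CDKN2A and reached 4.18 and 5.41. CDKN2B and CDKN2A were the nearest protein-coding genes of these 3 sites.

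The remaining gained sites were at CCND3 and CDKN1B. At CCND3, a site at chr6:41917400-41917984 with an AP-1 match lay at the MED20 start and had 5.32 and 9.20 over background, and a weak site in a CCND3 intron at chr6:42046444-42047316 had 4.56 and 3.79. At CDKN1B, the site at chr12:12805659-12806183 in an APOLD1 intron, 88.6 kb downstream and shown above, had 6.08 and 8.66 over background. The intergenic site at chr12:12599821-12600334, 117.3 kb upstream, had 6.46 and 6.50. An untreated peak lay within 500 bp of 6 of the 13 gained sites.

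Lost sites were weaker still, with percentiles of 2.13 to 40.2 (median 15.1) in untreated 1 and 15.99 to 46.5 (median 22.8) in untreated 2. CDKN1C, which had no gained site, had 4 of the 10. They were at chr11:2836969-2837482 in a KCNQ1 intron (5.85 and 7.16 over background in the untreated libraries), chr11:2858162-2858937 in KCNQ1-AS1 (2.79 and 4.03), chr11:2919608-2920197 in an SLC22A18 exon (4.18 and 4.47) and chr11:2942101-2943046 between genes (3.62 and 4.47). At CDKN1A 2 sites were lost, at chr6:36725131-36725655 in RAB44 (3.07 and 4.03) and at chr6:36753686-36754372 in CPNE5 (5.02 and 5.37), the latter with the NF-kB match shown above. Single lost sites lay near CCND2 at chr12:4308489-4309063 by the TIGAR start (5.30 and 4.03), CDKN1B at chr12:12667849-12668413 in GPR19 (3.35 and 6.71), CCNE1 at chr19:29744397-29744985 (3.62 and 5.37) and the p16 start of CDKN2A at chr9:21975630-21976192 (3.07 and 4.47). For 4 of the 10 lost sites, the TWEAK lists held a peak less than 500 bp off.

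The 174 shared sites ranked high in their lists. Their mean percentile was 69.9, 71.7, 70.7 and 67.0, beside 64.0, 66.5, 64.5 and 60.8 over all 131751 shared sites. Between the groups the mean was 70.8 ± 1.27 in untreated and 68.9 ± 2.60 in TWEAK libraries (SD, n = 2 each), a difference of −1.89 percentile points beside −2.53 over all shared sites (two-sided exact permutation test, p = 0.667). Its direction turned under other settings. The difference was 0.721 with a −log10 p of at least 5 (beside −0.65), 2.82 at 5 times the background (beside 1.95) and 0.489 with ranks among shared sites. At 31 sites (17.8%) both TWEAK ranks were above both untreated ranks, beside 15.8% of all shared sites, and at 45 (25.9%) both were below, beside 35.4%. These counts depend on the scale. On fold over background, which was higher in the TWEAK lists over all shared sites (medians 12.5, 14.8, 15.6 and 16.8, and a median log2 difference of 0.14 between the groups), 73 of the 174 sites were above (42.0%, beside 34.8% of all shared sites) and 14 below (8.05%, beside 12.2%). After each list was centred on its median over all shared sites, 34 were above (19.5%, beside 18.5% of all shared sites) and 55 below (31.6%, beside 36.4%). Ranks among shared sites only gave 48 above (27.6%, beside 23.3%) and 37 below (21.3%, beside 28.0%). Lists of equal length gave 45 above (26.5%, beside 21.8%) and 38 below (22.4%, beside 30.1%). A −log10 p of at least 5 gave 42 above (26.9%, beside 22.2%) and 32 below (20.5%, beside 28.5%).

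**Figure D3:**
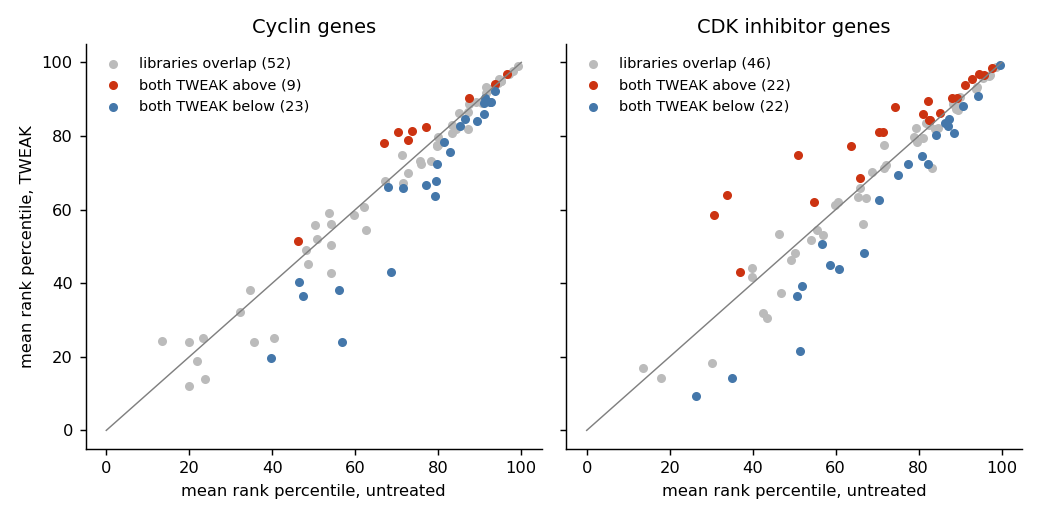
Mean rank percentile of each shared site in the 2 untreated (horizontal) and the 2 TWEAK libraries (vertical), for sites near cyclin genes (84) and near CDK inhibitor genes (90); the line marks equal ranks. Sites with both TWEAK ranks above both untreated ranks number 9 near cyclins and 22 near CDK inhibitors, and those with both below 23 and 22, beside 15.8% above and 35.4% below of all shared sites; on fold over background without centring 73 of all 174 were above and 14 below, beside 34.8% and 12.2% of all shared sites.

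On ranks, near the cyclins 9 of 84 shared sites were above (10.7%) and 23 below (27.4%), and near the CDK inhibitors 22 of 90 were above and 22 below (24.4% each), beside the 15.8% and 35.4% of all shared sites. Most of the sites above at the inhibitors were at CDKN1A (10 of 27, with 3 below) and CDKN2B (5 of 11, with 0 below). More sites below than above, as over all shared sites, were counted at CCND3 (3 above and 11 below of 28), CDKN1B (3 and 9 of 24), CDKN1C (4 and 10 of 28) and CCND1 (2 and 6 of 21). Their shares below of 39.3%, 37.5%, 35.7% and 28.6% were near or under that of all shared sites. CCNE1 had 4 of each among 22, CCNE2 had 0 above and 2 below of 8, and CCND2 had none in either direction among 5. On fold over background without centring, where all shared sites also counted more above (45884) than below (16121), CCND1 had 5 above and 1 below, CCND3 7 and 5, CDKN1B 6 and 3, and CDKN1C 12 and 3, against their order on ranks, while CDKN1A had 18 and 0 and CDKN2B 9 and 0. After centring the order was again that of the ranks, with 1 above and 9 below at CCND1, 4 and 13 at CCND3, 3 and 13 at CDKN1B, 3 and 9 at CDKN1C, 14 and 4 at CDKN1A, and 5 and 1 at CDKN2B. The difference between cyclin and CDK inhibitor genes was not tested, since sites of a locus share the same libraries and are not replicates.

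Of the 10 loci, CDKN1A, CDKN2B and CDKN2A had the largest differences in mean rank between the groups when all 4 libraries were used. Each locus was given as the mean percentile of its shared sites minus that of all shared sites in the same library. CDKN1A measured 6.09, 4.58, 10.0 and 10.3 points (5.33 ± 1.06 untreated and 10.2 ± 0.211 TWEAK, n = 2 each), a difference of 4.85 points. CDKN2B measured 12.2, 12.8, 16.4 and 18.0 points, a difference of 4.68. CDKN2A, whose 9 shared sites are all among the 11 of CDKN2B and are no separate measurement, measured 10.2, 10.7, 14.1 and 15.4, a difference of 4.33. For each of the 3 both TWEAK values were above both untreated values (exact permutation test, p = 0.333, the smallest that these libraries allow), as they were at 28.8% of the 17621 protein-coding genes with at least 5 shared sites. When each library was left out in turn, the differences ran from 3.45 to 4.91 at CDKN1A, from 4.22 to 8.25 at CDKN2B and from 4.33 to 8.21 at CDKN2A, the highest of the latter pair without untreated 1. Without untreated 1 the largest difference of the 10 was 8.71 at CCND2, which has few shared sites and turned to −3.39 without untreated 2. Of the genes tested 7.03% had a larger difference than CDKN1A, 7.60% than CDKN2B and 9.001% than CDKN2A.

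**Figure D4:**
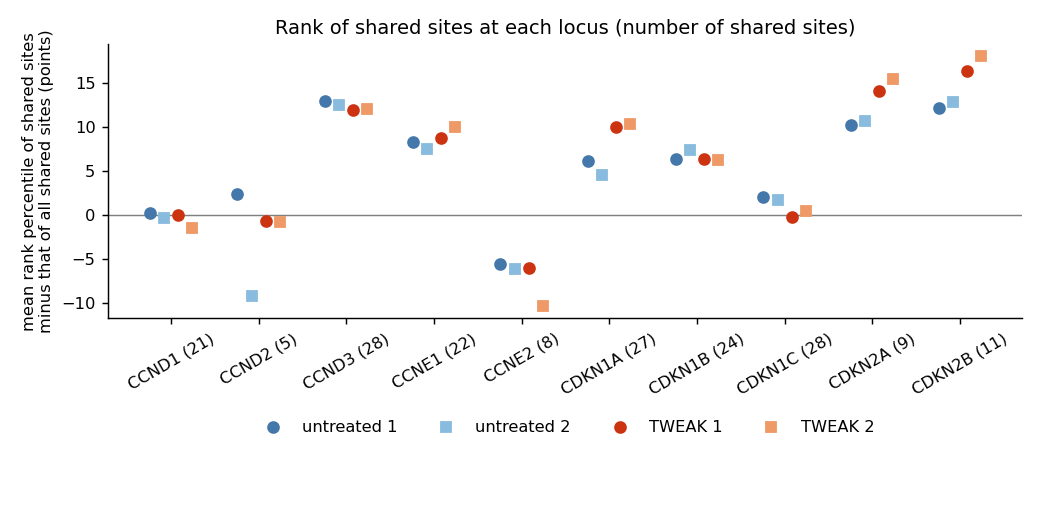
Mean rank percentile of the shared sites of each locus minus that of all shared sites (percentile points), for each library; the number of shared sites stands beside the gene. Both TWEAK libraries lie above both untreated libraries at CCNE1, CDKN1A, CDKN2A and CDKN2B and below them at CCND3 and CDKN1C; without subtracting the mean of all shared sites, the groups overlap at CCNE1, CDKN2A and CDKN2B.

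CCNE1 was the fourth locus with both TWEAK values above, at 8.32, 7.54, 8.76 and 9.97 points, a difference of 1.44 that 30.8% of genes exceeded and that was 0.18 without TWEAK 2. CDKN1C, at 2.05, 1.71, −0.18 and 0.43 points, and CCND3, at 12.9, 12.5, 12.0 and 12.0, had both TWEAK values below both untreated values, as had 26.8% of genes. Their differences were −1.76 and −0.72, and −0.81 at CDKN1C without TWEAK 1 and −0.05 at CCND3 without untreated 1. The loci of CCND1, CCND2, CCNE2 and CDKN1B overlapped between the groups. Without centring on all shared sites, the groups overlapped at CCNE1, CDKN2A and CDKN2B. The mean percentile at CCNE1 was then 72.3, 74.0, 73.3 and 70.8, a difference that turned to −1.09. CDKN2B stood at 76.2, 79.3, 80.9 and 78.8 (difference 2.15), and CDKN2A at 74.2, 77.1, 78.7 and 76.2 (difference 1.80 between means, with a median over sites of −0.17). At CDKN1A it was 70.1, 71.0, 74.6 and 71.2, and its TWEAK minus untreated difference of 2.32 points turned to −0.31 when TWEAK 1 was left out, where that of all shared sites was −4.60. The centred log2 folds of the TWEAK libraries were higher by 0.18 at CDKN1A, 0.15 at CDKN2A and 0.18 at CDKN2B. The differences at the other 7 genes ran from −0.14 to −0.02, beside a mean of −0.07 over all shared sites.

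The CDKN1A sites with higher TWEAK ranks lay on both sides of the gene. Of the 31 shared sites near the 10 genes with both TWEAK ranks above, 2 had counting intervals of the fold that were clear between the groups, both near CDKN1A, and at the others and at the 45 sites below they overlapped. The same share over all shared sites is not given here, so whether 2 of 31 is many or few cannot be told. The site at chr6:36662868-36663429, 15.6 kb upstream and nearest to CDKN1A, had pileups of 15, 13, 27 and 28 and percentiles of 23.7, 37.4, 55.8 and 61.0, a difference of 27.8 points between group means. The site at chr6:36755606-36756130, in a non-coding exon of CPNE5 77.2 kb downstream, had percentiles of 52.96, 48.9, 78.1 and 71.4 and holds both an AP-1 and an NF-kB match. It stood 8.08, 7.60, 23.5 and 21.7 over background, and the counting intervals of both TWEAK values (18.1 to 30.2 and 15.5 to 29.5) lay above those of both untreated values (5.41 to 11.6 and 4.43 to 12.2). Another, at chr6:36627663-36628203, intergenic and 50.8 kb upstream, stood 15.3, 20.6, 50.1 and 38.4 over background, with percentiles of 71.8, 76.8, 91.2 and 84.4. There too the TWEAK intervals (41.9 to 59.5 and 30.02 to 48.5) were clear of the untreated ones (11.6 to 19.96 and 15.1 to 27.4). Within the gene, the intronic site 4.23 kb downstream at chr6:36682680-36683205, the highest-ranked distal site of the locus, had 55.8, 70.7, 83.2 and 91.5 over background. Its percentiles of 93.9, 95.2, 96.8 and 96.7 put both TWEAK libraries above, while the promoter beside it did not separate the groups.

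**Figure D5:**
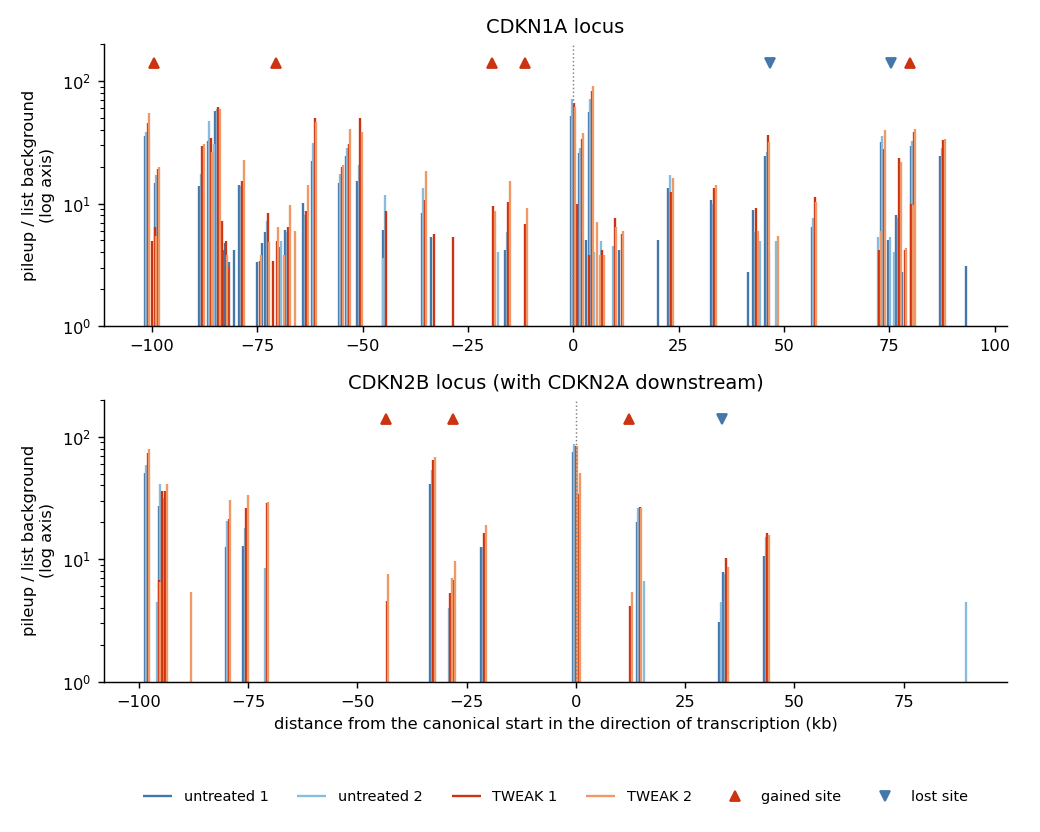
Pileup over the list background (log axis) of each site in the 4 libraries against the distance from the canonical start of CDKN1A (upper panel) and CDKN2B (lower panel) in the direction of transcription, with lines drawn from the background level of 1; triangles mark gained and inverted triangles lost sites. The lines of the 4 libraries are spread sideways for visibility, and the CDKN2A sites lie to the right of CDKN2B.

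The 5 CDKN2B sites with higher TWEAK ranks all lay within CDKN2B-AS1, upstream of CDKN2B. The highest-ranked was at chr9:22107120-22107647, 98.1 kb upstream, with 50.2, 58.2, 73.7 and 79.1 over background and percentiles of 92.7, 93.2, 95.8 and 95.3. The site at chr9:22041799-22042303, 32.7 kb upstream, stood 40.7, 53.7, 64.2 and 68.2 over background. The widest difference was at chr9:22084580-22085127, with percentiles of 67.2, 73.7, 80.3 and 81.7, and was looked up after the values were seen. An AP-1 match was found in 3 of the 5, and the promoters of CDKN2B and CDKN2A were not among them.

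Elsewhere, the widest upward difference was near CDKN1B. The intergenic site at chr12:12585027-12585566, 132.1 kb upstream of its canonical start and nearest to DUSP16, had percentiles of 30.3, 37.4, 62.1 and 66.0, and 4.74, 5.82, 12.5 and 17.9 over background. A neighbour at chr12:12586866-12587394, with the NF-kB match shown above, had percentiles of 62.6, 65.0, 77.7 and 77.0 and 10.9, 12.5, 23.2 and 27.1 over background. Both TWEAK libraries were above both untreated libraries at these 2 sites, with overlapping counting intervals (up to 9.94 in untreated 2 and from 8.63 in TWEAK 1 at the former, and up to 18.1 and from 17.7 at the latter).

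The widest downward differences were at other loci. Near CCND3, the intergenic site at chr6:42089349-42090141 had percentiles of 57.5, 56.4, 35.5 and 12.3, and 9.20, 9.39, 6.08 and 4.87 over background. In the 3′ untranslated region of CDKN1B, chr12:12721072-12721598 had percentiles of 51.7, 51.0, 25.5 and 17.9. A site 5.69 kb upstream of CCNE1 at chr19:29806040-29806559 had percentiles of 69.4, 67.7, 48.6 and 37.7 and 13.9, 13.9, 8.36 and 8.12 over background. The counting intervals of the untreated and TWEAK values overlapped at each of these sites. The last 2 were weak in every library: chr11:2917190-2919459 at the SLC22A18 start near CDKN1C, with percentiles of 23.7, 46.5, 16.4 and 12.3, and chr11:69647994-69649203 inside CCND1, with 33.1, 46.5, 16.4 and 23.03. On fold over background neither of these separated the groups.

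At every locus except those of CCNE2 and CDKN2B, the strongest distal shared site had a higher mean percentile than the best promoter site. For CCND1 it was an intronic site of LTO1 at chr11:69654603-69655131, which holds an NF-kB match and stood 115, 137, 122 and 141 over background (percentiles 99.0, 99.2, 98.9 and 99.1). For CDKN1C it was an intronic site of SLC22A18 at chr11:2912477-2912988, with 135, 168, 142 and 165 over background and matches to AP-1, TFAP2 and the GC box. These exceeded the promoters of the same genes in every library. For CCND3 it lay in C6orf132 (84.2, 107, 95.3 and 104 over background), and for CDKN1B in APOLD1 with an AP-1 match (55.8, 85.4, 71.8 and 83.9). CCNE1 had an intergenic site 29.9 kb downstream at chr19:29841591-29842104 with 73.0, 83.7, 87.4 and 92.6 over background, and both TWEAK ranks were above by 0.36 percentile points on average. CCND2, with a peak of untreated 2 alone at its canonical start, had an intronic site 3.35 kb downstream with 22.6, 23.7, 25.1 and 30.9 over background. The strongest distal site at CCNE2, in NDUFAF6, reached 16.2, 17.0, 19.7 and 17.9.

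Promoters made up 24.3% of the sites near the 10 genes, beside 16.2% of all sites, a share that taking sites by their distance from transcript starts bears on directly. The sites had a higher median GC content than all sites (53.5% beside 47.3%) and more often held a GC box within 100 bp of the peak centre (18.8% beside 10.5%). Among promoter sites alone the GC box share was 42.7% beside 30.9%. Matches on either strand to NF-kB (7.63% beside 6.21%), AP-1 (TGACTCA or TGAGTCA, 8.17% beside 9.01%), TFAP2 (13.6% beside 12.1%), STAT (TTCNNNGAA, 4.09% beside 5.80%) and forkhead (TGTTTAC, 4.63% beside 5.59%) were near the share of all sites. E2F letters (TTTCCCGC, TTTCGCGC, TTTGCCGC or TTTGGCGC) were in 2 sites (0.545% beside 0.637%). RefSeq promoter sequences were matched for CCND3, CCNE1, CDKN1A, CDKN1B, CDKN2A and CDKN2B, and 5 of these 6 held a GC box in the 250 bases before the start, beside 42.6% of 35116 promoters. For CCND3 the RefSeq start, chr6:42048688, is not the canonical start described above, and for CDKN2A it is the upstream p14ARF start.

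NF-kB or AP-1 letters were in 54 of the 367 sites (14.7%), the same share as in all sites (14.7%). They were in 3 of the 13 gained and 2 of the 10 lost sites, where the series as a whole had them in 34.1% of gained and 8.95% of lost sites. Among shared sites the share was unequal between directions, which was not tested. Of the 31 sites with both TWEAK ranks above, 14 (45.2%) held a match, among them 4 of 10 at CDKN1A and 3 of 5 at CDKN2B. Of the 45 sites below, 6 (13.3%) held a match, as did 6 of the 98 sites that overlapped (6.12%). Over all shared sites of the series the shares were 32.9%, 9.78% and 15.2%, in the same order for sites above and below. Promoters made up 3 of the 31 sites above (9.68%, beside 12.9% over all shared sites), 11 of the 45 below (24.4%, beside 20.6%) and 37 of the 98 others (37.8%, beside 21.9%).

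Other genes of the cell cycle were taken from a list of 54 genes that includes the CDKs, E2F factors, RB1 and replication licensing genes. All 54 had a promoter site in all 4 libraries, beside 76.0% of 19970 protein-coding genes. Within 100 kb of them lay 2633 sites, of which 78 were gained (2.96%) and 92 lost (3.49%), both under the share of all sites. Counting only the 758 sites nearest to a listed gene, 27 were gained (3.56%) and 21 lost (2.77%), again no more than over all sites. The genes with at least 2 gained or 2 lost sites nearest to them were the following. CDK6, the partner of D-type cyclins, was nearest to 53 sites, with 8 gained and 1 lost, and the CDK-activating kinase gene CDK7 to 5 sites, with 3 gained and 0 lost. MYC was nearest to 166 sites, with 4 gained and 5 lost. TFDP1, the dimer partner of E2F factors, was nearest to 30 sites, with 0 gained and 5 lost, and FZR1, an activator of the anaphase-promoting complex, to 15 sites, with 1 gained and 2 lost.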

How the data were processed

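The files were 4 peak lists of SKBR3 cells, 1 for each library, grouped by the treatment and replicate number in the sample titles. Per the methods and labels, the authors used Trimmomatic for adaptors, Bowtie2 for mapping to hg38, Bamtools to drop mitochondrial reads, Picard for duplicates and MACS2 for peaks; versions, MACS2 settings and a shift for Tn5 are not given in the sources used here. The deposited lists give 501 bp peaks per library, from which blacklisted regions had been removed by the file names, and a −log10 p-value per peak.

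Pileups were recovered by matching each −log10 p-value to the upper Poisson tail of a whole-number pileup with 1 background per list, fitted on the 30 lowest distinct values. All values matched within 1% of the step between neighbouring pileups. Intervals (95%, exact Poisson) cover counting error only, and pileups are not independent molecules. Sites on chromosomes 1 to 22 and X were assigned with GENCODE release 44 (any transcript start, 100 kb window, 1 kb promoter). Motifs were searched up to 100 bp to each side of the best peak's centre. Calls were counted and set beside the same share over all sites; single values per library were compared by exact permutation tests over libraries. The study's methods call the cell line replicates biological, and the labels do not tie a library to a culture or a batch. Reads are not used here, so no count model was run.

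Named sites were the best promoter and best distal shared site of each gene, all gained and lost sites, and the 5 widest differences of shared sites in each direction. Values at the canonical starts, the means per locus and the motif shares by direction were added after the values were seen. The genes, lists and rules were chosen with earlier results of these data known. Scripts were tested on simulated data. A marker gene and a motif that were also examined are not reported here. Alternatives covered thresholds, merging, windows, scales, left-out libraries and a replicate block. Python 3.11.15, pandas 2.3.3, NumPy 2.4.6 and SciPy 1.17.1 were used.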

Additional observations from a re-analysis of the deposited data

How the results depend on the processing

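The difference of −13 sites per library turned to 7 when peaks had to be at least 5 times over background. The mean percentile difference of −1.89 turned to 0.721 with a −log10 p of at least 5, to 2.82 at 5 times the background and to 0.489 with ranks among shared sites; as log2 fold over background it was 0.20, and −0.05 after centring, which was added after the data were seen. The p-values of these were 0.333 to 0.667 by the exact permutation test. With a −log10 p of at least 5, 6 sites were lost (2.09%, beside 3.36% of all sites). At 5 times the background 5 were lost (1.87%, beside 2.33%). Of the shared sites at that threshold, 57 were above (37.3%, beside 30.2% of all shared sites) and 19 below (12.4%, beside 19.7%). The balance of 31 above and 45 below turned to 42 and 32 with a −log10 p of at least 5, to 45 and 38 with lists of equal length and to 48 and 37 with ranks among shared sites, where all shared sites stayed at more below than above; as log2 folds 73 were above and 14 below. A 50 kb window left 8 gained sites, 16 above, 29 below and 104 in all libraries, and a 20 kb window 4 gained, 2 lost, 11 above, 20 below and 61 in all libraries. Sites nearest to the 10 genes numbered 6 gained, 3 lost, 13 above, 16 below and 59 in all libraries. Without a peak of the other treatment within 500 bp, 7 gained and 6 lost sites remained in the count, and of strong sites 1 and 0. Whole peaks held NF-kB or AP-1 letters in 94 sites. Of the cell cycle list, 27 gained and 21 lost sites were nearest to a listed gene. Leaving out each library in turn gave −25.5 to −1 sites, −4.32 to −0.695 percentile points, 22 to 33 gained, 20 to 44 lost, 41 to 64 above, 60 to 106 below and 181 to 188 in all libraries; the counts rise by construction, since a call then needs fewer libraries. Gained sites were fewest without untreated 1 (6.38%, beside 6.54% of all sites) and most without TWEAK 2 (9.12%, beside 11.6%). Lost sites were fewest without TWEAK 1 (5.63%, beside 9.29%) and most without untreated 1 (12.8%, beside 15.9%). Sites above ran from 21.9% without TWEAK 1 (beside 20.2% of all shared sites) to 35.2% without TWEAK 2 (beside 30.6%). Sites below ran from 33.0% without TWEAK 2 (beside 42.0%) to 56.7% without TWEAK 1 (beside 57.6%). The cause of the other changes was not tested. Merging at 250 bp, lists cut to equal length and promoters within 500 bp kept each count of sites within 1.5 times, but with lists of equal length, beside that turn in balance, the differences shrank to −4 sites and −0.315 percentile points. The site difference was −1 with the 20 kb window and −0.5 for sites nearest to the 10 genes. Whether the replicate numbers pair the libraries cannot be told from the labels. The correlation of deviations of same-numbered libraries was 0.024, which does not show how the libraries were prepared. With a replicate block, labels permuted within pairs only, both tests gave p = 1 by exact permutation with the same differences of −13 and −1.89. Weak sites near a list's threshold, at pileups of 7 to 10, and peaks of a list just beside a site limit gained and lost calls, and 2 libraries a group cannot reach a p under 0.333.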
